A study of Mus musculus with 27 samples.

Results

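Acyl-CoA thioesterases and the acyl-CoA:amino acid N-acyltransferases are enzymes that take coenzyme A off fatty acyl groups. The 9 genes described here are Acot1, Acot2, Acot3, Acot4, Acot8, Acot12, Acot13, Acnat1 and Acnat2. They were picked by gene symbol out of 22869 genes with read counts in a table of mouse liver RNA, and each was measured by a single transcript row. The 9 genes were tested in every comparison, since each passed the filter on low counts that left 12009 genes.

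RNA was sequenced from livers of C57Bl/6 mice given the adeno-associated virus AAV8 and taken 10 days later, when the mice had free access to food. HDAC3 LKO livers (4 libraries) came from Hdac3-floxed mice given AAV8 with Cre recombinase, SCAP LKO livers (4 libraries) came from Scap-floxed mice given the same virus, and Double LKO livers (3 libraries) came from mice floxed for both genes. The GFP controls (6 libraries) were 2 livers from each of those 3 floxed lines, given AAV8 with GFP in place of Cre. HDAC3 is a histone deacetylase of the nuclear receptor corepressor complexes, and SCAP escorts the sterol-regulated factors SREBP1 and SREBP2 to the Golgi, where they are activated. The series also holds 10 chromatin samples, which are not used here. No unfloxed liver given Cre was analysed here, so an effect of Cre itself and of losing the gene cannot be told apart in the comparisons with GFP. The knockouts came from different floxed lines. In comparisons between knockouts, gene loss and floxed line therefore cannot be told apart. The GFP group pools the 3 lines, so in each comparison with GFP the knockout and some of the controls also differ in floxed line. The labels name neither the promoter driving Cre nor the age of the mice, and nothing states that each library was a separate mouse, so that the p-values measure the spread between libraries.

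Fatty acids are activated to acyl-CoA before they are burned, stored or built into lipids, and thioesterases reverse that step by releasing the free acid and CoA. ACOT1 works in the cytosol, ACOT2 in the mitochondrion, and ACOT3, ACOT4 and ACOT8 in the peroxisome, so that the same reaction is split between compartments. The mouse type I genes Acot1 to Acot6 arose by duplication, and several are textbook targets of the fatty acid sensor PPARA in liver. ACNAT1 moves the acyl group to the amino acid taurine instead of water in mouse peroxisomes, and Acnat2 encodes its close relative.

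Promoters of Acot1 to Acot4, and of Acnat1 and Acnat2, are shown because the genes of each family are close relatives that lie near each other, so that their windows can be compared. Each is the 250 bases before a RefSeq transcript start in GRCm38.p6, written 5′ to 3′ along the gene, and capitals mark a match to a searched motif. Along chromosome 12 the first 4 genes lie in the order Acot2, Acot1, Acot4 and Acot3, all on the plus strand.
Acot1, chr12:84009252-84009501, plus strand: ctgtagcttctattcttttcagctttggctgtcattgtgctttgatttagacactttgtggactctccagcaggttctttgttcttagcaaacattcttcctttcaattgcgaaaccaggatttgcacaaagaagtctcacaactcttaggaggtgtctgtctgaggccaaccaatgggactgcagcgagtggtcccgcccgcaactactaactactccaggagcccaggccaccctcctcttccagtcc
Acot2, chr12:83987611-83987860, plus strand: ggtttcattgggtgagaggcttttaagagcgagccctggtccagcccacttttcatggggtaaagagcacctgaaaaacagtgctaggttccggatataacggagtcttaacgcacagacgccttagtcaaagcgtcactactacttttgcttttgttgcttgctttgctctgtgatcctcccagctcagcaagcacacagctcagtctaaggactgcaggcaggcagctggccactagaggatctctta
Acot3, chr12:84051894-84052143, plus strand: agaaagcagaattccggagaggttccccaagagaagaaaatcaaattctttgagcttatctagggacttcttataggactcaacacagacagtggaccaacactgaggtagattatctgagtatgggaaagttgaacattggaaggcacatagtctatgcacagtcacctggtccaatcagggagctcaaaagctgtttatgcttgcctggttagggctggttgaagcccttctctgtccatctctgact
Acot4, chr12:84038129-84038378, plus strand: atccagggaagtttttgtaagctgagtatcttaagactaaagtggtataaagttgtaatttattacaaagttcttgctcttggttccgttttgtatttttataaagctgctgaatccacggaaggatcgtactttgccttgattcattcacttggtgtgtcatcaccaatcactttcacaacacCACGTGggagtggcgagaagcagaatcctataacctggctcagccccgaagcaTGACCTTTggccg
Acnat1, chr4:49451110-49451359, minus strand: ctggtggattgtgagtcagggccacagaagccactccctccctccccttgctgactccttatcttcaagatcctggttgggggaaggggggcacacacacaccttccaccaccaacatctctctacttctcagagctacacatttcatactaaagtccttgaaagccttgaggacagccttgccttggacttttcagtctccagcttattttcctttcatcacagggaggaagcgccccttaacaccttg
Acnat2, upstream start, chr4:49408152-49408401, minus strand: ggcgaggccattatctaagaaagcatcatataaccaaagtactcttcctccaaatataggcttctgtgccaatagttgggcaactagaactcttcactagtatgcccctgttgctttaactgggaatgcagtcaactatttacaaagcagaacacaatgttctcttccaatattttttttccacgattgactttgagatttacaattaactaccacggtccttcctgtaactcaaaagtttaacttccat
Acnat2, downstream start, chr4:49405759-49406008, minus strand: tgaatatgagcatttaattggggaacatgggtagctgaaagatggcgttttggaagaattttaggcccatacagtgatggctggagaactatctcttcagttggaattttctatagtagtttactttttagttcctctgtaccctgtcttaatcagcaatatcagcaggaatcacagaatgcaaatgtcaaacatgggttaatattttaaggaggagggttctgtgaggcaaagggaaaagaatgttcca
Acot3 has another RefSeq start close by whose window largely repeats the one shown.

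The promoters of 8 of the 9 genes, all but Acot13, were searched on both strands for 5 motifs. These were the nuclear receptor hexamer AGGTCA, its extended form AAAGGTCA, the direct repeat of that hexamer with a single base between its copies, bound by PPARA with its partner RXR, the E-box CACGTG, and the sterol response element form TCACNCCAC. The shorter hexamer is contained in the extended form and in the repeat. The Acot4 window held the extended hexamer, read on the opposite strand as TGACCTTT, 13 bases before the start, and an E-box 66 bases before it. The Acot12 window held AGGTCA, also on the opposite strand, 110 bases before its start. The other 6 genes with a window, Acot1, Acot2, Acot3, Acot8, Acnat1 and Acnat2, had no match. Among 32851 promoter windows of the same length, 14% held AGGTCA, 1.34% the extended form, 0.0335% the direct repeat, 6.02% the E-box and 1.05% the sterol response element form.

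The libraries held 3546597 to 20622671 counts over the genes used. Hdac3 averaged 9.59 ± 1.47 CPM in HDAC3 LKO livers (SD, n = 4) and 11.0 ± 1.64 CPM in Double LKO livers (n = 3), against 36.9 ± 2.26 CPM in GFP controls (n = 6), where CPM is the count scaled to library depth with TMM factors. Scap averaged 51.4 ± 6.24 CPM in SCAP LKO livers (n = 4) and 47.5 ± 2.82 CPM in Double LKO livers (n = 3), against 118 ± 17.2 CPM in GFP controls (n = 6), so the targeted genes were low where the labels put the knockouts. The 10 hepatocyte markers summed to 115700 to 144800 CPM in HDAC3 LKO livers, 109700 to 146200 in SCAP LKO livers, 74200 to 136600 in Double LKO and 120300 to 143800 in GFP controls. Double LKO library 2, with 3736618 counts, had the 74200 CPM, and on the second principal component of all genes it lay at -45.8, with the other 16 libraries between -25.7 and 19.4. In bulk liver, fewer cells of a type and less RNA per cell cannot be told apart.

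In HDAC3 LKO livers 5 of the 9 genes were higher than in GFP controls, and none was called lower. Acnat2 rose 3.43-fold, Acot3 2.59-fold, Acot2 2.25-fold, Acot1 1.83-fold and Acot13 1.46-fold, each at an adjusted p under 0.05 (edgeR quasi-likelihood test, adjusted over 12009 genes). In this comparison 13.9% of the genes tested passed that threshold in either direction, and 7.88% passed it upwards. The median log2 fold change was 0.59 over the 9 genes and -0.02 over the 12009 genes tested. In 3 of the 9, Acot12, Acot13 and Acnat2, every HDAC3 LKO library lay above every control library, as did 7.49% of the genes tested. SCAP LKO livers had no gene of the 9 past the threshold, and Double LKO livers had Acnat2 alone. In HDAC3 LKO livers DESeq2 called 4 of the 9, without Acot3, and 1633 of all genes, and limma voom with quality weights called 8 of the 9 and 2372 of all genes, against 1666 of all genes with edgeR.

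**Figure D1:**
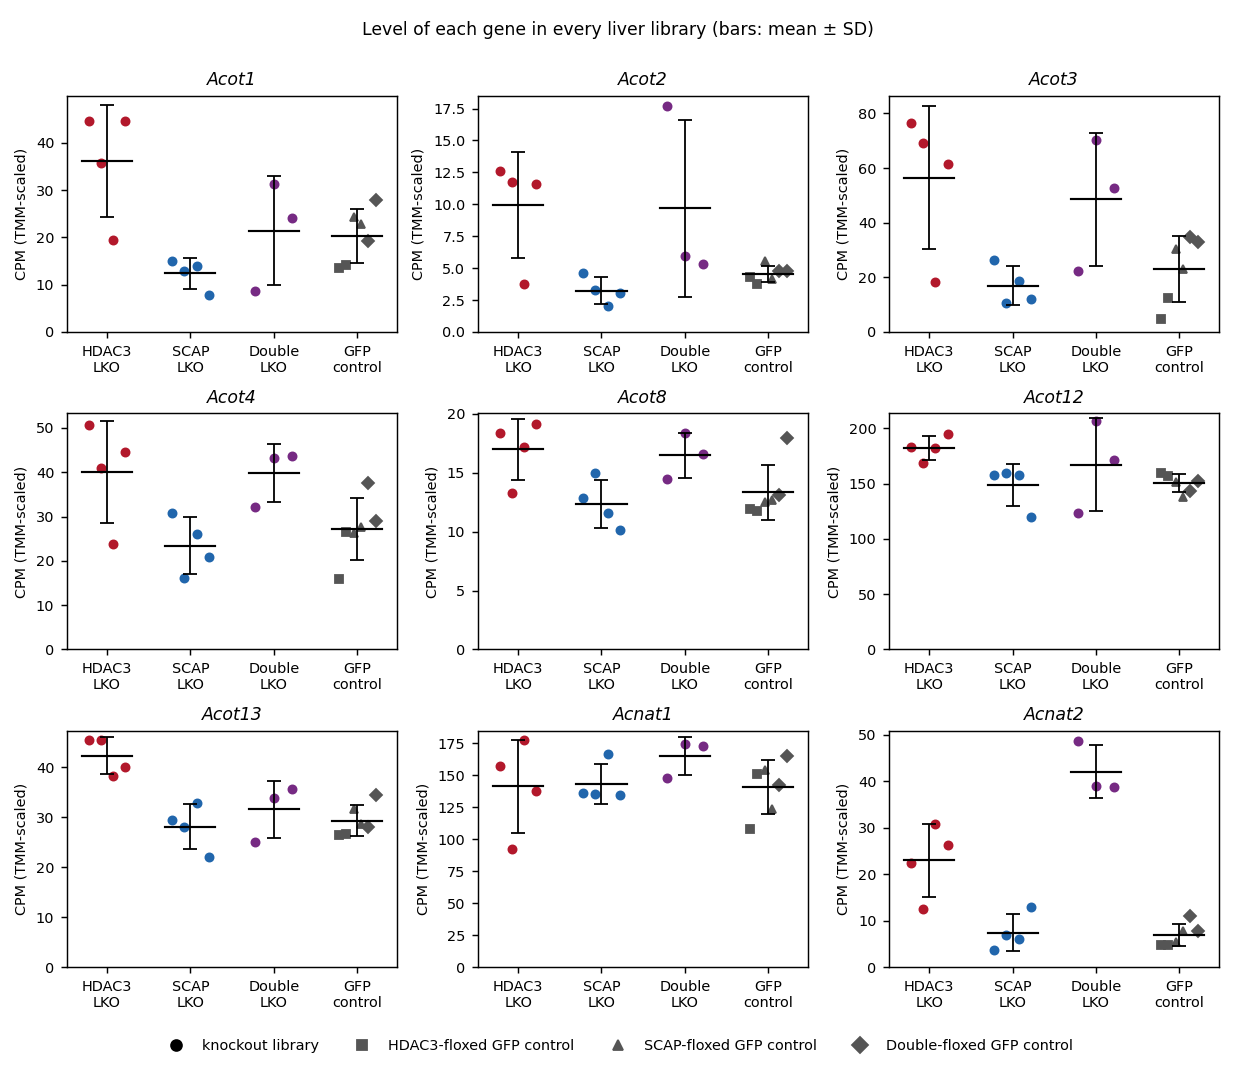
Level of each of the 9 genes in every library, as TMM-scaled CPM on linear axes that start at 0. Points are single libraries, squares, triangles and diamonds mark the floxed line of the control, and black bars give the mean ± SD. Acnat2 in Double LKO livers stands between 38.6 and 48.5 CPM, above all other libraries, while HDAC3 LKO library 3 lies low for Acot1 to Acot4.

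Acot1 encodes the cytosolic long-chain acyl-CoA thioesterase. It stood at 44.6, 35.8, 19.5 and 44.5 CPM in HDAC3 LKO libraries 1 to 4, at 15.0, 12.8, 14.0 and 7.76 CPM in SCAP LKO libraries 1 to 4, and at 8.74, 31.4 and 24.0 CPM in Double LKO libraries 2 to 4, against 13.6 (lowest), 21.1 (median) and 27.8 CPM (highest) in the 6 GFP controls. Of the HDAC3 LKO libraries, 1, 2 and 4 lay above every control and library 3 lay within their range. The log2 fold change was 0.88 (SE 0.28, adjusted p = 0.0417) in HDAC3 LKO livers, -0.70 (SE 0.32, adjusted p = 0.422) in SCAP LKO livers and 0.17 (SE 0.30, adjusted p = 0.789) in Double LKO livers. The SCAP LKO and control values overlapped, with 2 of the 4 SCAP LKO libraries below the lowest control, and the 3 Double LKO libraries lay below, above and within the control range.

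Acot2 encodes the mitochondrial counterpart, closely similar in sequence to Acot1. Its level was 12.6, 11.7, 3.73 and 11.6 CPM in HDAC3 LKO libraries 1 to 4, 4.60, 3.26, 2.05 and 3.06 CPM in SCAP LKO libraries 1 to 4, and 17.7, 5.96 and 5.35 CPM in Double LKO libraries 2 to 4, against 3.79 (lowest), 4.54 (median) and 5.54 CPM (highest) in the controls. Library 3 of the HDAC3 LKO livers was below every control, whereas the other 3 were above every control. Against the controls, the log2 fold change was 1.17 (SE 0.32, adjusted p = 0.0201) in HDAC3 LKO livers, -0.53 (SE 0.40, adjusted p = 0.706) in SCAP LKO livers and 0.96 (SE 0.35, adjusted p = 0.0801) in Double LKO livers. The Double LKO value depended on library 2, without which it was 0.33 (adjusted p = 0.54). It passed the threshold without Double LKO library 4 (1.31, adjusted p = 0.03) or without HDAC3 LKO library 3 (0.96, adjusted p = 0.0385).

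Reads of Acot1 and Acot2 may be shared, because the genes are close copies and no source used here says how multiply mapped reads were counted. The ratio of Acot1 to Acot2 counts was 3.06 to 5.22 in HDAC3 LKO livers, 2.54 to 6.81 in SCAP LKO livers and 3.15 to 5.85 in the controls. In Double LKO livers it was 0.49 in library 2, against 5.26 in library 3 and 4.49 in library 4. Library 2 was thus the only one of the 17 in which Acot2 had more counts than Acot1.

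**Figure D2:**
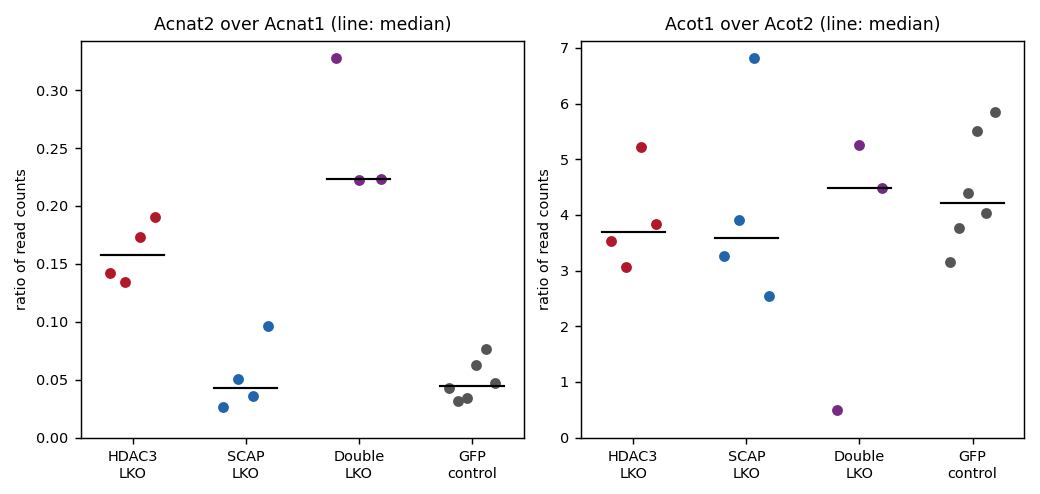
Ratio of read counts between close relatives in each library, for Acnat2 over Acnat1 (left) and Acot1 over Acot2 (right), with the group median as a line. The Acnat2 ratio of every HDAC3 LKO and Double LKO library is at least 0.134, above the highest SCAP LKO library (0.0965) and the highest control (0.0766), and 1 Double LKO library stands apart at 0.49 on the right.

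Acot3 encodes a peroxisomal long-chain thioesterase. HDAC3 LKO libraries 1 to 4 held 76.6, 69.0, 18.2 and 61.6 CPM, SCAP LKO libraries 1 to 4 held 26.1, 10.6, 18.7 and 12.0 CPM, and Double LKO libraries 2 to 4 held 22.3, 70.4 and 52.8 CPM, against 4.91 (lowest), 26.7 (median) and 34.9 CPM (highest) in the controls. In both genotypes without HDAC3, 1 library (HDAC3 LKO 3 and Double LKO 2) lay within the control range and the others lay above it. As log2 fold changes these were 1.38 (SE 0.44, adjusted p = 0.0442) in HDAC3 LKO livers, -0.39 (SE 0.50, adjusted p = 0.866) in SCAP LKO livers and 1.18 (SE 0.47, adjusted p = 0.11) in Double LKO livers. Without Double LKO library 2 the Double LKO value was 1.49 (adjusted p = 0.0439).

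Acot4 encodes the peroxisomal thioesterase for succinyl-CoA and other dicarboxylic acyl-CoAs. The HDAC3 LKO libraries 1 to 4 gave 50.6, 41.0, 23.9 and 44.5 CPM, the SCAP LKO libraries 1 to 4 gave 30.8, 16.1, 26.1 and 20.9 CPM, and the Double LKO libraries 2 to 4 gave 32.2, 43.3 and 43.7 CPM, against 15.9 (lowest), 27.1 (median) and 37.6 CPM (highest) in the controls. HDAC3 LKO library 3 and Double LKO library 2 again fell within the control range, and the groups overlapped. The log2 fold change was 0.59 in both HDAC3 LKO livers (SE 0.21, adjusted p = 0.0719) and Double LKO livers (SE 0.23, adjusted p = 0.0954), and -0.18 in SCAP LKO livers (SE 0.23, adjusted p = 0.857), none past the threshold. The HDAC3 LKO value passed it without HDAC3 LKO library 3 (0.77, adjusted p = 0.0182) or without double-floxed control 1 (0.71, adjusted p = 0.0337), and the Double LKO value did so without that control (0.71, adjusted p = 0.0431). Of 12 alternatives that did not leave out 1 library, 6 called it in HDAC3 LKO livers and 6 did not. Calls came with no filter on low counts (0.59, adjusted p = 0.0489) and with limma voom and quality weights (0.57, adjusted p = 0.0423), among others. In Double LKO livers 2 of 10 such alternatives called it, among them limma voom (0.64, adjusted p = 0.0204), and 8 did not.

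The calls of Acot1, Acot2 and Acot3 in HDAC3 LKO livers rested on small margins. Acot1 lost its call when any 1 of 8 libraries was left out, namely HDAC3 LKO 1, 2 or 4, SCAP LKO 2, either HDAC3-floxed control, SCAP-floxed control 2 or double-floxed control 1, with log2 fold changes of 0.75 to 0.92 and adjusted p-values of 0.0525 to 0.14. Acot2 lost it without HDAC3 LKO 1, 2 or 4 (1.03 to 1.11, adjusted p = 0.0612 to 0.0834). Acot3 lost it without any 1 of 9 libraries, the 7 named for Acot1 apart from double-floxed control 1, and SCAP LKO 3 or Double LKO 4 (1.12 to 1.39, adjusted p = 0.0519 to 0.139), and also with DESeq2 on all libraries (1.30, adjusted p = 0.0898). With the counts of Acot1 to Acot6 summed to 1 feature, the log2 fold change was 0.94 (adjusted p = 0.0254) in HDAC3 LKO livers. It was -0.41 (adjusted p = 0.677) in SCAP LKO livers and 0.69 (adjusted p = 0.135) in Double LKO livers. How shared reads were counted is not known, so the sum may miss them or count them more than once. Of the summed counts, Acot3 held 36.4%, Acot4 33.6%, Acot1 23.3% and Acot2 6.33%. Acot5 and Acot6 added little to that sum, with 0 to 2 and 0 to 8 counts per library.

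The same library was low for most of these genes. HDAC3 LKO library 3 was the lowest of its group for 5 of the 9 genes (55.6%) and for 15 of 26 PPARA target genes (57.7%). Over all genes tested this share was 27.0%. Library 2 was the lowest for the other 4 of the 9. Of the other lists, library 3 was the lowest for 2 of 11 other thioesterases and CoA hydrolases and 8 of 24 peroxisomal genes. It was also the lowest for 6 of 16 acyl-CoA synthetases and 6 of 13 genes of CoA synthesis and acyl-CoA binding. Library 2 was the lowest for 5, 13, 6 and 6 of these, in the same order. Among cell type markers, library 3 was the lowest for 8 of 10 endothelial, 5 of 10 stellate cell, 2 of 10 hepatocyte and 0 of 11 macrophage genes, and the part of this in the results was not tested. Library 3 was not low for Acnat2 or Acnat1, where it was the highest of the 4. With HDAC3 LKO library 3 and Double LKO library 2 both left out, a choice made after the data were seen, 6 of the 9 genes passed the threshold in HDAC3 LKO livers (Acot1 to Acot4, Acot13 and Acnat2) and 3 in Double LKO livers (Acot3, Acot4 and Acnat2). Over all genes, 1850 were then called in HDAC3 LKO livers (1666 with every library) and 1593 in Double LKO livers (1669 with every library).

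**Figure D3:**
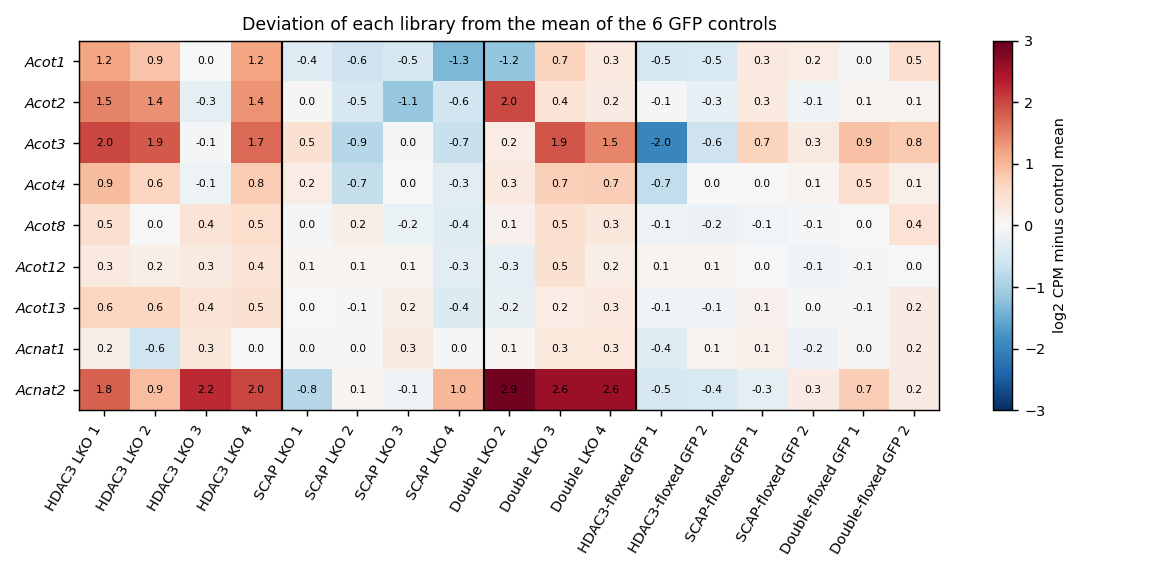
Deviation of each library from the mean log2 CPM of the 6 GFP controls, for the 9 genes (rows) and 17 libraries (columns, groups parted by black lines), with each value printed in its cell. HDAC3 LKO libraries 1, 2 and 4 are raised for Acot1 to Acot4 while library 3 is near 0, and Acnat2 is raised in all 7 libraries without HDAC3.

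Of the 9 genes, Acot3 had the widest gap between the HDAC3-floxed controls and the other control lines. Its level was 4.91 and 12.3 CPM in the HDAC3-floxed controls, 30.2 and 23.1 CPM in the SCAP-floxed controls, and 34.9 and 33.1 CPM in the double-floxed controls, so that both HDAC3-floxed livers lay below the other 4. HDAC3-floxed minus double-floxed controls gave a log2 difference of -2.05 (SE 0.59, adjusted p = 0.239), and none of the 9 genes passed the threshold between any pair of control lines, where 0.0164% to 0.205% of 12214 genes did. Against the 2 controls of its own line, HDAC3 LKO gave log2 fold changes of 2.79 for Acot3 (adjusted p = 0.00442), 2.26 for Acnat2 (adjusted p = 0.00128), 1.39 for Acot1 (adjusted p = 0.0265), 1.30 for Acot2 (adjusted p = 0.0891), 0.95 for Acot4 (adjusted p = 0.0408) and 0.68 for Acot13 (adjusted p = 0.0128). Against its own line, Double LKO gave 2.16 for Acnat2 (adjusted p = 0.00199), and the other 8 genes ran between -0.07 and 0.86 with no call. With the pair of HDAC3-floxed controls left out, added after seeing these values, HDAC3 LKO kept calls for Acot13 and Acnat2 and gave 0.91 for Acot3 (adjusted p = 0.123), 1.08 for Acot2 (adjusted p = 0.0848) and 0.63 for Acot1 (adjusted p = 0.181). Over all genes, 1421 were then called in HDAC3 LKO livers (1666 with every library). The part of the floxed line in the Acot3 result was not tested further.

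Acot8 encodes a peroxisomal thioesterase of broad substrate range. It measured 18.3, 13.3, 17.2 and 19.1 CPM in HDAC3 LKO libraries 1 to 4, 12.8, 15.0, 11.6 and 10.2 CPM in SCAP LKO libraries 1 to 4 and 14.5, 18.3 and 16.6 CPM in Double LKO libraries 2 to 4, against 11.8 (lowest), 12.6 (median) and 17.9 CPM (highest) in the controls. The HDAC3 LKO and Double LKO livers overlapped with the controls through a single control, the second double-floxed one, since the next highest control had 13.1 CPM. Its log2 fold change was 0.36 (SE 0.14, adjusted p = 0.0973) in HDAC3 LKO livers, -0.12 (SE 0.15, adjusted p = 0.854) in SCAP LKO livers and 0.33 (SE 0.15, adjusted p = 0.151) in Double LKO livers. Without that control the values were 0.45 (adjusted p = 0.0228) in HDAC3 LKO livers and 0.43 (adjusted p = 0.0384) in Double LKO livers, and without HDAC3 LKO library 2 the HDAC3 LKO value was 0.47 (adjusted p = 0.039).

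Acot12 encodes the cytosolic acetyl-CoA hydrolase of liver. Its level was 183, 169, 182 and 194 CPM in HDAC3 LKO libraries 1 to 4, 157, 159, 158 and 120 CPM in SCAP LKO libraries 1 to 4, and 123, 207 and 171 CPM in Double LKO libraries 2 to 4, against 138 (lowest), 152 (median) and 159 CPM (highest) in the controls. All 4 HDAC3 LKO livers exceeded every control, but the log2 fold change of 0.28 (SE 0.11) did not pass the threshold (adjusted p = 0.118). It did so without Double LKO library 2 (0.28, adjusted p = 0.031), which enters the shared estimate of spread. With every library kept, it also passed with limma voom and quality weights (0.31, adjusted p = 0.0166). A fit of only the HDAC3 LKO and control libraries passed it too (0.27, adjusted p = 0.0177). The other 10 of 12 alternatives that did not leave out 1 library made no call. In SCAP LKO livers the value was -0.02 (SE 0.12, adjusted p = 0.987) and in Double LKO livers 0.16 (SE 0.12, adjusted p = 0.466), or 0.33 (adjusted p = 0.0452) without Double LKO library 2.

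Acot13 encodes a small thioesterase that associates with mitochondria. HDAC3 LKO libraries 1 to 4 had 45.5, 45.5, 38.4 and 40.1 CPM, SCAP LKO libraries 1 to 4 had 29.5, 28.02, 32.9 and 22.02 CPM, and Double LKO libraries 2 to 4 had 25.1, 34.0 and 35.7 CPM, against 26.5 (lowest), 28.3 (median) and 34.5 CPM (highest) in the controls. HDAC3 LKO livers lay above all 13 other libraries. The log2 fold change of 0.54 (SE 0.12, adjusted p = 0.00353) kept its call with any 1 library left out, with values of 0.50 to 0.59. In SCAP LKO livers the log2 fold change was -0.06 (SE 0.12, adjusted p = 0.931), and in Double LKO livers it was 0.14 (SE 0.13, adjusted p = 0.551).

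Acnat1 encodes the peroxisomal enzyme that conjugates fatty acids to taurine. Its level was 157, 92.3, 177 and 138 CPM in HDAC3 LKO libraries 1 to 4, 136, 135, 167 and 134 CPM in SCAP LKO libraries 1 to 4 and 148, 175 and 173 CPM in Double LKO libraries 2 to 4, against 108 (lowest), 147 (median) and 165 CPM (highest) in the controls. All groups overlapped with the controls. Log2 fold changes were 0.01 (SE 0.15, adjusted p = 0.989) in HDAC3 LKO livers, 0.03 (SE 0.15, adjusted p = 0.979) in SCAP LKO livers and 0.24 (SE 0.16, adjusted p = 0.376) in Double LKO livers.

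Acnat2 encodes the close relative of that enzyme, near it on chromosome 4, and had the largest log2 fold change of the 9 genes in HDAC3 LKO and in Double LKO livers. It stood at 22.4, 12.4, 30.7 and 26.2 CPM in HDAC3 LKO libraries 1 to 4, at 3.63, 6.80, 6.03 and 13.0 CPM in SCAP LKO libraries 1 to 4 and at 48.5, 38.9 and 38.6 CPM in Double LKO libraries 2 to 4, against 4.64 (lowest), 6.53 (median) and 10.9 CPM (highest) in the controls. Every liver without HDAC3 was above every control, and the lowest Double LKO library was 3.55 times the highest control. The log2 fold change was 1.78 (SE 0.28, adjusted p = 0.000316) in HDAC3 LKO livers, 0.24 (SE 0.33, adjusted p = 0.877) in SCAP LKO livers and 2.66 (SE 0.28, adjusted p = 3.66e-06) in Double LKO livers. Both calls held with any 1 library left out, over log2 ranges of 1.61 to 1.998 in HDAC3 LKO livers and 2.54 to 2.84 in Double LKO livers.

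The count ratio of Acnat2 to Acnat1 within a library, which does not depend on scaling between libraries, was 0.134 to 0.190 in HDAC3 LKO livers, 0.0267 to 0.0965 in SCAP LKO livers and 0.223 to 0.328 in Double LKO livers, against 0.0317 to 0.0766 in the controls. The ranges of HDAC3 LKO and Double LKO livers overlapped neither each other nor the controls. Acnat1 had more counts than Acnat2 in every library. With both genes summed to 1 feature, the log2 fold change was 0.16 (adjusted p = 0.54) in HDAC3 LKO livers, 0.03 (adjusted p = 0.977) in SCAP LKO livers and 0.49 (adjusted p = 0.0417) in Double LKO livers, where Acnat1 alone gave 0.24 (adjusted p = 0.376). How many reads the 2 genes share was not tested.

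**Figure D4:**
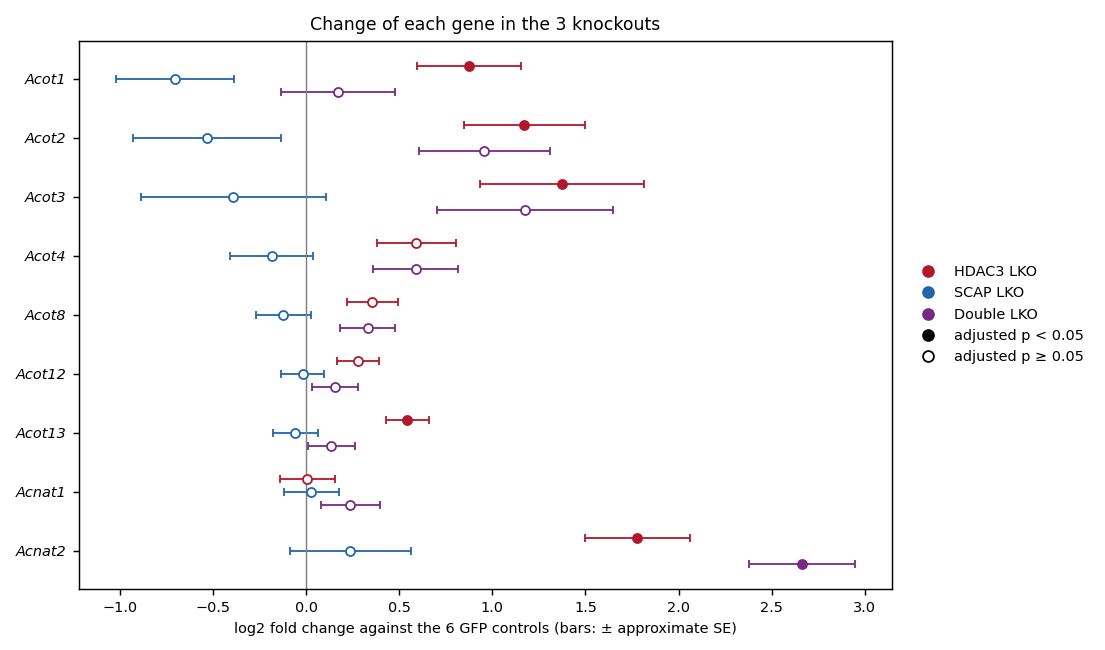
Log2 fold change of each gene in HDAC3 LKO (red), SCAP LKO (blue) and Double LKO livers (purple) against the 6 GFP controls, with bars of 1 approximate SE. Filled points passed an adjusted p of 0.05, which holds for 5 genes in HDAC3 LKO, none in SCAP LKO and Acnat2 alone in Double LKO livers.

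SCAP LKO livers showed no call among the 9 genes, where 1.19% of the genes tested passed the threshold in either direction. The log2 fold changes ran between -0.70 (Acot1) and 0.24 (Acnat2), with a median of -0.12 over the 9 genes and 0.01 over all genes tested. Before adjustment, the edgeR quasi-likelihood p of Acot1 was 0.039. The other tools, DESeq2 and limma voom with quality weights, also called 0 of the 9. Over all genes they called 231 and 234, against 143 with edgeR. The authors' deposited table gives Acot1 a log2 fold change of -0.77 at a false discovery rate of 0.0183 in this comparison, from the authors' own edgeR run. SCAP LKO library 4 was the lowest of its group for 5 of the 9 genes, compared with 27.4% of all genes tested. Among cell type markers it was the lowest for 10 of 10 hepatocyte, 9 of 10 endothelial, 2 of 10 stellate cell, 0 of 11 macrophage and 0 of 4 cholangiocyte genes. It was also the lowest for 19 of 24 peroxisomal genes, 18 of 26 PPARA target genes and 11 of 16 acyl-CoA synthetases. For CoA synthesis and acyl-CoA binding it was 9 of 13, and for other thioesterases and CoA hydrolases 4 of 11. The part of this in the results was not tested.

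Among the 9 genes Double LKO livers had only Acnat2 called higher, the 1 gene of the 9 whose libraries did not overlap with the controls (7.09% of the genes tested lay wholly above), in a comparison where 13.9% of the genes tested passed the threshold in either direction and 7.56% upwards. All 9 log2 fold changes were positive, with a median of 0.33 for the 9 genes and -0.01 for all genes tested. DESeq2 called 2 of the 9 genes and 1677 of all genes, and limma voom with quality weights 4 of the 9 and 2874 of all genes, against 1669 of all genes with edgeR. The authors' deposited table gives Acnat2 a log2 fold change of 2.64 at a false discovery rate of 5.22e-33 and Acot2 one of 0.93 at a rate of 0.0237. For HDAC3 LKO livers, the authors' deposited table lists false discovery rates of 0.0240 or lower for Acot1, Acot2, Acot3, Acot13 and Acnat2, the 5 genes called here.

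HDAC3 LKO livers were higher than SCAP LKO livers in 7 of the 9 genes, where 14.7% of the genes tested passed the threshold in either direction and 8.52% upwards. These groups differ in floxed line as well as in the gene lost, and the part of the line was not tested. HDAC3-floxed minus SCAP-floxed controls gave log2 differences of -1.69 for Acot3 (SE 0.61) and -0.76 for Acot1 (SE 0.42). The other genes ran between -0.49 (Acnat2) and 0.13 (Acot12). The log2 differences were 1.77 for Acot3 (SE 0.52, adjusted p = 0.0267), 1.70 for Acot2 (SE 0.40, adjusted p = 0.00664), 1.58 for Acot1 (SE 0.33, adjusted p = 0.00312), 1.54 for Acnat2 (SE 0.32, adjusted p = 0.00296), 0.78 for Acot4 (SE 0.24, adjusted p = 0.0353), 0.60 for Acot13 (SE 0.13, adjusted p = 0.004) and 0.48 for Acot8 (SE 0.16, adjusted p = 0.0469). Acot12 gave 0.29 (adjusted p = 0.132) and Acnat1 -0.02 (adjusted p = 0.954). In 3 genes, Acot1, Acot12 and Acot13, the groups did not overlap, as in 11.5% of the genes tested in that direction. Acot3 lost its call without any 1 of 6 libraries (HDAC3 LKO 1, 2 or 4, SCAP LKO 2, 3 or 4), with 1.58 to 1.83 and adjusted p-values of 0.0564 to 0.083, and Acot4 lost it without the same libraries, with 0.64 to 0.84 and adjusted p-values of 0.0554 to 0.122. Acot8 lost it without any 1 of 11 libraries (HDAC3 LKO 1, 3 or 4, SCAP LKO 1, 3 or 4, Double LKO 4, HDAC3-floxed control 2, either SCAP-floxed control or double-floxed control 1), with 0.39 to 0.502 and adjusted p-values of 0.0505 to 0.157.

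No call was made among the 9 genes when Double LKO was set against HDAC3 LKO livers, where 1.31% of the genes tested passed in either direction. The log2 differences that came closest were 0.88 for Acnat2 (SE 0.29, adjusted p = 0.218) and -0.41 for Acot13 (SE 0.14, adjusted p = 0.221), and in both the libraries of the genotypes did not overlap, as in 4.66% of the genes tested upwards and 5.07% downwards. Acot1 gave -0.70 (SE 0.33, adjusted p = 0.442). DESeq2 called 0 of the 9 and limma voom with quality weights called 1. Over all genes, DESeq2 called 240 and limma voom 509, against 157 with edgeR. The floxed line also differs here, and its part was not tested. HDAC3-floxed minus double-floxed controls gave log2 differences of -0.99 for Acnat2 (SE 0.44), -0.23 for Acot13 (SE 0.18) and -0.76 for Acot1 (SE 0.41).

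Double LKO livers exceeded SCAP LKO livers in Acnat2 (log2 difference 2.43, SE 0.33, adjusted p = 0.000122) and Acot2 (1.49, SE 0.42, adjusted p = 0.0354), where 7.99% of the genes tested passed in either direction and 4.98% upwards. Libraries of the groups did not overlap in Acot2, Acot4 and Acnat2, as in 9.13% of the genes tested in that direction. Floxed line differs here too, and its part was not tested. SCAP-floxed minus double-floxed controls gave log2 differences of -0.50 for Acnat2 (SE 0.48) and 0.02 for Acot2 (SE 0.61). The call of Acot2 was lost without Double LKO library 2 (0.86, adjusted p = 0.132) or without SCAP LKO library 2 (1.505, adjusted p = 0.068), 3 (1.29, adjusted p = 0.12) or 4 (1.48, adjusted p = 0.0788). It was also lost with limma voom and quality weights (0.87, adjusted p = 0.101) and with only the Double LKO and SCAP LKO libraries in the fit (1.52, adjusted p = 0.107). Without Double LKO library 2, calls were also reached by Acot1 (1.18, adjusted p = 0.0202), Acot3 (1.87, adjusted p = 0.0347) and Acot4 (0.89, adjusted p = 0.0425).

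Whether the changes of the single knockouts added up in the Double LKO livers was tested by a contrast of the Double LKO change minus the sum of both single-knockout changes on the log2 scale. None of the 9 genes passed, and 0% of the genes tested passed. DESeq2 and limma voom also called 0 of the 9, and 7 and 6 of all genes. The values ran between -0.35 (Acot13, SE 0.18, adjusted p = 0.969) and 0.65 (Acnat2, SE 0.44, adjusted p = 0.969). The lack of a call does not show that the changes add up, since the size of departure that could be detected was not tested. The contrast joins knockouts of different floxed lines with the GFP controls pooled. With controls of the own line, 0 of the 9 and 0 of all genes were called, and the part of the line was not tested further.

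Other genes of acyl-CoA metabolism were read from lists drawn up with earlier results of these data known. Of 11 tested genes for other acyl-CoA thioesterases and CoA hydrolases, only Hibch, a hydrolase of valine breakdown, rose in HDAC3 LKO livers (0.50, adjusted p = 0.0154). Fasn, fatty acid synthase, whose thioesterase domain frees palmitate, fell in SCAP LKO (log2 fold change -3.54, adjusted p = 5.97e-08) and Double LKO livers (-3.22, adjusted p = 6.54e-07), as the only one of the list in SCAP LKO and with Mblac2 in Double LKO livers (-0.89, adjusted p = 0.00376). The list's median log2 fold change was 0.17 in HDAC3 LKO livers, -0.17 in SCAP LKO livers and -0.01 in Double LKO livers.

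Acyl-CoA synthetases catalyse the opposite step. In HDAC3 LKO livers 5 of 16 tested rose and 1 fell, with Acss3 at a log2 fold change of 1.90 (adjusted p = 3.81e-05) and Acss2, the cytosolic acetyl-CoA synthetase, at 0.94 (adjusted p = 0.00209). In SCAP LKO livers none rose and 4 fell, namely Acsl3 (-2.51, adjusted p = 2.34e-06), Acss2 (-1.24, adjusted p = 0.00117), Acsl5 (-0.96, adjusted p = 9.05e-05) and Acsl4 (-0.83, adjusted p = 0.0136). These 4 genes also fell in Double LKO livers (-2.47, -1.41, -0.95 and -1.35, adjusted p = 0.000242 or lower), where 2 others rose. Acsl1, the most highly expressed synthetase not called, had values of 0.48 in HDAC3 LKO livers, -0.38 in SCAP LKO livers and -0.26 in Double LKO livers.

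Among 13 genes of CoA synthesis and acyl-CoA binding, 3 rose and 1 fell in HDAC3 LKO livers. Coasy, which makes CoA in its last steps, rose by 0.61 on the log2 scale (adjusted p = 8e-05), Slc25a42, a mitochondrial CoA carrier, by 0.40 (adjusted p = 0.0447), and Dbi, the acyl-CoA binding protein, by 0.28 (adjusted p = 0.0452), whereas Acbd4 gave -0.43 (adjusted p = 0.00957). In SCAP LKO livers Dbi alone was called (-1.49, adjusted p = 3.73e-09). In Double LKO livers 1 rose (Coasy 0.50, adjusted p = 0.00101) and 3 fell (Dbi at -1.19, Pank3 at -0.70 and Acbd4 at -0.47, adjusted p = 0.00899 or lower).

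Of 24 genes of peroxisomal fatty acid handling, 9 rose in HDAC3 LKO livers and none fell, with Ehhadh, the bifunctional enzyme of peroxisomal oxidation, at 1.68 (adjusted p = 5.19e-07), the thiolase gene Acaa1b at 1.57 (adjusted p = 2.19e-05) and the carnitine acyltransferase gene Crat at 1.16 (adjusted p = 0.000824). In SCAP LKO livers 3 of the 24 fell, among them Ehhadh (-1.04, adjusted p = 0.000211) and Acaa1b (-0.94, adjusted p = 0.0162). In Double LKO livers 5 rose and none fell, among them Crat (0.91, adjusted p = 0.00923) and Crot, the carnitine octanoyltransferase gene (0.73, adjusted p = 0.00338). The list's medians were 0.36 in HDAC3 LKO livers, -0.07 in SCAP LKO livers and 0.26 in Double LKO livers.

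Of 26 PPARA target genes, 14 rose in HDAC3 LKO livers and none fell, with a median log2 fold change of 0.43. Cpt1b, a carnitine palmitoyltransferase, stood at 1.75 (adjusted p = 1.22e-05) and the medium-chain dehydrogenase gene Acadm at 0.91 (adjusted p = 9.33e-06). In SCAP LKO livers 4 fell, among them the fatty acid hydroxylase gene Cyp4a10 (-2.16, adjusted p = 0.000618), and the median was -0.19. In Double LKO livers 9 rose and 1 fell with a median of 0.25, Cpt1b at 1.79 (adjusted p = 7.28e-06), Acadm at 1.08 (adjusted p = 1.24e-06) and the lipid droplet gene Plin2 at 0.84 (adjusted p = 0.00602). Among cell type markers, 1 of 10 stellate cell genes was called in HDAC3 LKO livers and 1 of 10 hepatocyte genes in Double LKO livers, with none of the tested macrophage (11), endothelial (10) or cholangiocyte (4) genes called in any knockout.

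Genes with the most similar pattern were found by the mean absolute difference of log2 CPM over the 17 libraries, each gene taken as its deviation from the control mean. For Acnat2 the nearest were Arid3a (0.40), Tgm1 (0.43) and Fam25c (0.46), whose log2 fold changes were 1.96, 1.36 and 1.78 in HDAC3 LKO livers and 2.07, 2.07 and 1.81 in Double LKO livers. Nearest to Acot2 were Plin2 (0.31), Rhou (0.32) and Gstm2 (0.32), and nearest to Acot1 were Adck3 (0.30), Gpam (0.31) and Pank1 (0.32). Acot3 had its nearest genes further off, at 0.45 for Csad, 0.48 for Rd3 and 0.51 for Sgk2, with Acot4 the nearest of the other members at 0.56. Acot13 was matched most closely by Etfdh (0.11), Fbxo8 (0.11) and Apoe (0.11). A small difference can come from small changes alone, as the log2 fold changes of 0.32, 0.35 and 0.51 of the 3 genes nearest Acot13 in HDAC3 LKO livers show.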

How the data were processed

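RNA counts came from 17 liver libraries in 4 groups. The authors deposited raw counts per transcript with log2 fold changes and false discovery rates (adjusted p-values) from edgeR, and the mm9 build, per the submitters' processing notes. The labels name no aligner or read counter for RNA. The kit does not mark strand, so overlapping antisense reads cannot be told apart. The row marked best for each gene was used (80.4% to 82.0% of counts per library), and 17 per-sample columns of other values were left unused. All 17 libraries entered 1 edgeR 4.0.16 fit (R 4.3.3) with TMM scaling, filterByExpr and the quasi-likelihood F-test, with Benjamini-Hochberg adjustment over 12009 genes and a threshold of 0.05. The SE is the log2 fold change divided by the square root of F. Depth was 3546597 to 20622671 counts per library. In 18 replicate pairs the chi-square per degree of freedom was 2.86 to 40.9, so none matched within sampling noise. On simulated data, changes of 1 on the log2 scale were recovered in 90.9% of cases for HDAC3 LKO against GFP control (11908 genes), 81.6% for SCAP LKO (11887 genes) and 85% for Double LKO (11897 genes). Changes of 2 were recovered in 99%, 98% and 99%, and false calls were 6%, 7.8% and 5.2% of all calls in the same order. The simulation changed a small set of genes in a single knockout at a time, around a shared mean per gene. It set no library or floxed line apart, so these rates do not give the power for each member. DESeq2 1.42.0 and limma 3.58.1 were alternatives. All 9 members were named; from each list, up to 4 called genes with the lowest adjusted p and the most expressed gene not called were eligible, and 3 genes nearest in pattern to each called member. Of these, 1 gene is not reported here. Members and lists were chosen with earlier results of these data known. Chromosome 12 and 4 promoters and start sites are from RefSeq, GRCm38.p6. The peak lists use mm9, for which no gene positions were used here, so peaks near members were not analysed here.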

Additional observations from a re-analysis of the deposited data

Results flagged for a closer look

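For each gene the HDAC3 LKO, SCAP LKO and GFP control libraries were examined, while the smaller Double LKO group was not. In 4 of these 27 groups of libraries the highest or lowest library stood further from its nearest neighbour than Dixon's critical value allows. Chance flags about 1 group in 20, but the 27 groups reuse the same libraries and are not independent. HDAC3 LKO library 3 had 3.73 CPM of Acot2, below the other 3 HDAC3 LKO libraries at 11.6 to 12.6 CPM. SCAP LKO library 4 had 120 CPM of Acot12, with the others at 157 to 159 CPM. In SCAP LKO library 3 Acnat1 was at 167 CPM, with the others at 134 to 136 CPM. The second double-floxed GFP control had 17.9 CPM of Acot8, with the other 5 controls at 11.8 to 13.1 CPM. The cause of these values was not tested.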

How the results depend on the processing

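Of 486 member values under alternatives other than leaving out 1 library, 417 kept direction and side of the threshold, 14 lost a call, 33 gained one and 22 changed sign; with 1 library left out these were 685, 47, 18 and 15 of 765. Members called moved in HDAC3 LKO against GFP to 8 with limma voom quality weights and to 2 without both HDAC3-floxed controls. Over all genes these settings called 2372 and 1421, against 1666 in the main analysis. For Double LKO against GFP the members called were 2 with relatives summed (1669 of all genes) or with DESeq2 (1677). They were 4 with voom (2874) and 3 without HDAC3 LKO library 3 and Double LKO library 2 (1593), against 1669 in the main analysis. Against HDAC3 LKO, Double LKO had 1 with voom (509 of all genes) and 1 without those libraries (157, as in the main analysis). Against SCAP LKO it had 4 with no filter (846 of all genes), with relatives summed (954) or without HDAC3-floxed controls (1030). It had 5 there with voom (1967) or without those libraries (1067), against 959 of all genes in the main analysis. With relatives summed, each of these genes counts its family's value. With 1 library left out there were 2 to 6 members in HDAC3 LKO, 1 to 3 in Double LKO and 0 to 0 in SCAP LKO against GFP, 0 to 0 in Double against HDAC3 LKO, 1 to 4 in Double against SCAP LKO and 4 to 8 in HDAC3 against SCAP LKO. Over all genes, own-line controls gave 839 calls in HDAC3 LKO (1666 in the main analysis), 90 in SCAP LKO (143) and 714 in Double LKO (1669). DESeq2 gave 231 in SCAP LKO, 240 in Double against HDAC3 LKO (157) and 7 for additivity (0). Voom gave 234 in SCAP LKO, 2874 in Double LKO, 509 in Double against HDAC3 LKO, 1967 in Double against SCAP LKO (959) and 6 for additivity. Fits of only the groups compared gave 99 in Double against HDAC3 LKO and 519 in Double against SCAP LKO. No filter gave 2 for additivity, removal of HDAC3-floxed controls 3, and removal of HDAC3 LKO library 3 and Double LKO library 2 gave 4 and, in SCAP LKO, 231. With 1 library left out there were 1086 to 2084 in HDAC3 LKO, 1211 to 1668 in Double LKO, 102 to 218 in SCAP LKO, 112 to 187 in Double against HDAC3 LKO, 679 to 1077 in Double against SCAP LKO, 1261 to 2142 in HDAC3 against SCAP LKO and 0 to 2 for additivity.

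The replicate block, on the libraries whose number could be tied to a sample, left only the HDAC3-floxed controls and gave 822 calls in HDAC3 LKO (1079 without the block on the same libraries) and 250 in SCAP LKO (261). Same-numbered libraries of HDAC3 LKO and SCAP LKO correlated at 0.08, 0.02, 0.11 and -0.06, so the numbers were not taken to pair them. In SCAP LKO that subset turned the sign of Acot3 (1.43 with the block, 1.03 without), Acot4 (0.306, 0.172), Acot8 (0.061, 0.031) and Acot13 (0.15, 0.074), and with the block Acot1 (0.01). Other changes of sign were in genes near 0. Acnat1 in HDAC3 LKO gave -0.012 with voom, -0.02 with the block, -0.05 without HDAC3-floxed controls, -0.121 without HDAC3 LKO library 3 and Double LKO library 2, and -0.12 to 0.168 with 1 library left out. In SCAP LKO, Acot12 gave 0.041 with own-line controls, 0.032 with voom, 0.024 without HDAC3-floxed controls and -0.051 to 0.073 with 1 library left out; Acnat1 gave -0.003 with voom, -0.029 without HDAC3-floxed controls and -0.055 to 0.078; Acnat2 gave -0.045 without HDAC3-floxed controls and -0.246 to 0.425; Acot13 gave -0.154 to 0.054. In Double LKO, Acot1 gave -0.071 with own-line controls, -0.067 without HDAC3-floxed controls and -0.139 to 0.479, and Acot12 -0.016 to 0.33. Acnat1 in HDAC3 against SCAP LKO gave 0.123 with relatives summed and -0.148 to 0.139. The cause was not tested. Peaks near members, and their window alternatives, were not run. Depth limits Acot2 most, which had as few as 12 counts in a library.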
